A study of Homo sapiens with 8 samples.

Results

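The comparison described here sets 1 A-498 line made with the first ANXA4 guide (KO guide 1) against 2 lines made with non-targeting guides (control 1 and control 2). It uses 6 of the 8 poly(A) RNA libraries of the series, chosen by their labels: 2 replicates of the KO guide 1 line and 4 of the control lines. A-498 is an established human kidney cancer cell line. All libraries came from its derivatives grown for 24 hours in the same medium after equal seeding, without a drug, and the controls carry a guide with no target while their genotype is labelled wild type. Each guide is represented by 1 line, so an effect of the guide and a difference between lines cannot be told apart, and p-values measure the spread between replicate libraries only. The other 2 libraries, of a line made with a second ANXA4 guide (KO guide 2), entered the estimate of spread and are quoted where they bear on a result.

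Annexin A4 is a calcium-dependent protein that binds acidic phospholipids at the inner face of the plasma membrane and is abundant in epithelia, the kidney included. Annexins assemble on membranes when calcium rises and are known for roles in membrane repair, vesicle traffic and the shaping of ion transport. Kidney cancer cells such as A-498 combine features of tubular epithelium with a mesenchymal, matrix-producing state.

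ANXA4 (Entrez gene 307, chr2:69643808-69827112 in GRCh38.p14) was examined first. Its normalized read counts were 235.6 and 234.4 in the KO guide 1 line, from 301 and 226 reads. Control 1 had 2821 and 3614, and control 2 had 3858 and 6773. Both KO guide 1 libraries lay far below every control library, at 5.52% and 5.49% of the control mean, and about equally so. The KO guide 2 libraries, at 3433 and 4142, lay within the control range. A transcript count does not show whether protein was made, and the counting is not known to have used strand. Because the line was made by targeting this gene, these levels are a description without a test.

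**Figure D1:**
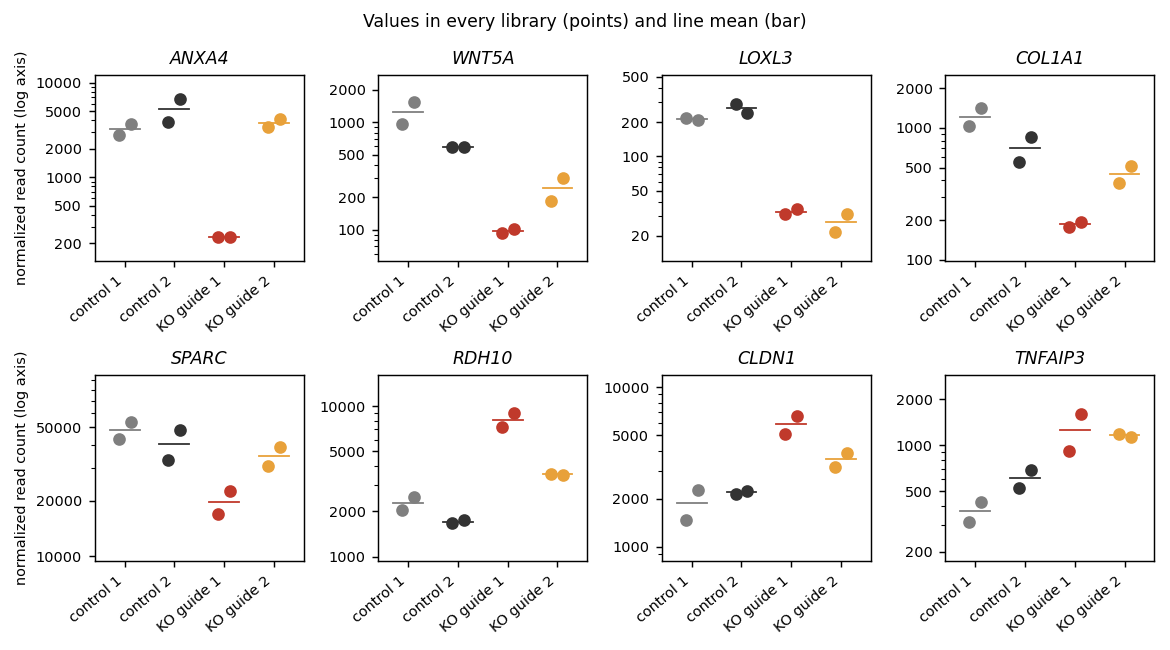
Normalized read counts (log axis) of 8 genes in each of the 8 libraries; points are libraries and bars are line means. The KO guide 1 libraries are the lowest for ANXA4, at 235.6 and 234.4, and for LOXL3 and TNFAIP3 the KO guide 2 libraries lie beside them.

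Of 28395 genes in the table, 13824 reached a normalized count of 10 in at least 2 of the 6 libraries and were tested with limma on log2(value + 1), so that every log2 difference below is on that scale. A gene was called when its Benjamini-Hochberg adjusted p was under 0.05 and both KO guide 1 libraries lay beyond all 4 control libraries. This rule called 944 genes (6.83% of those tested), 513 of them higher (3.71%) and 431 lower (3.12%). Without any test, the KO guide 1 libraries lay beyond all 4 control libraries for 34.2% of genes. Taken against each control line separately, 229 genes (1.66%) had an adjusted p under 0.05 in both and the same direction. The control lines differed from each other at 304 genes (2.2%), and 90 of the 944 called genes were among those. FN1, which encodes the matrix protein fibronectin and was singled out after its values were seen, had an adjusted p of 0.000491 but was not called. It stood at 17998 and 20159 in control 1, at 521 and 434 in control 2 and at 794 and 896 in the KO guide 1 line, so the direction turned with the control chosen.

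**Figure D2:**
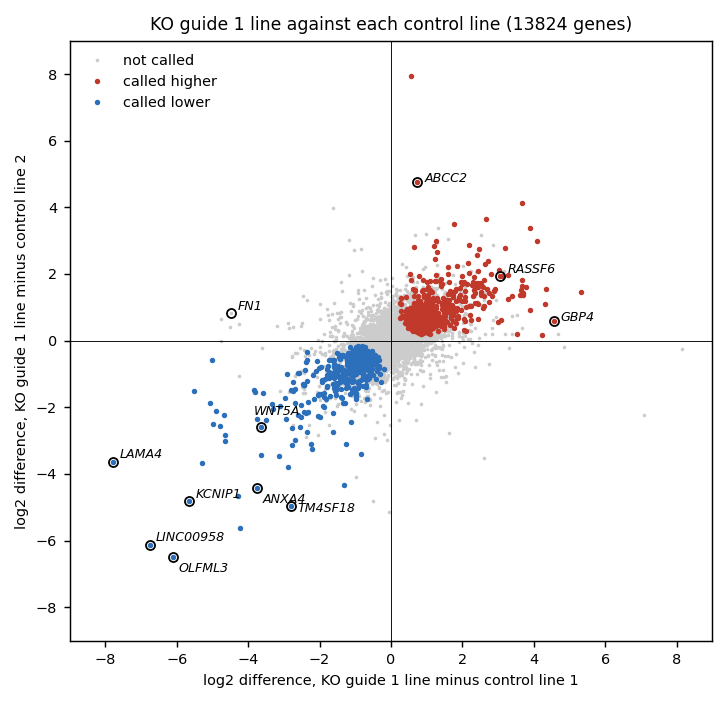
Each point is 1 of 13824 tested genes, placed by its log2 difference from control line 1 (horizontal) and from control line 2 (vertical), with called genes in red (higher) and blue (lower). LINC00958, OLFML3 and KCNIP1 sit near the diagonal at the lower left, LAMA4 is much lower against control 1 than against control 2, and FN1 lies on opposite sides of 0 for the 2 controls.

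The number of calls depended on single libraries. Without replicate 1 or replicate 2 of the KO guide 1 line it was 142 or 138, the remaining library being assumed to vary like the other lines. Without replicate 1 or 2 of control 1 it was 382 or 319, and without replicate 2 of control 2 it was 562. With the replicate number as a block in the fit, 2694 genes were called, all 944 among them. With lines as a random block, a fit of the 6 libraries in which replicates of 1 line share a correlation, 304 were called. The estimated correlation was 0.01, so this fit took replicates of a line as nearly independent. Having no mean per line, the fit counted the difference between the control lines as error. It made almost no further allowance for libraries of a line being alike, here and in the lists below. Of 135 called members of the gene lists below, 21 were called in each of the 8 fits that left out 1 library. The other 114 lost their call in at least 1, 105 of the 135 without KO guide 1 replicate 1 and 106 without replicate 2.

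The 12 largest falls ranged from genes with no read left to genes still clearly expressed. They were ranked by the smaller of the differences from control 1 and control 2 among called genes with a mean of at least 50, and all 12 were called in each fit that left out 1 library. KCNIP1, which encodes a calcium-binding subunit of voltage-gated potassium channels, had 2.35 and 1.04 normalized counts in the KO guide 1 line. The controls had 119.5, 144.6, 82.6 and 63.4. With 3 reads per library as the floor, it was at least 37.6-fold lower (adjusted p 6.12e-05). Its KO guide 2 values, 148.9 and 130.4, lay above 3 of the 4 control values, and 1 of them above all 4.

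LINC00958, a long noncoding RNA, and OLFML3, a secreted matrix protein, had no read in either KO guide 1 library. LINC00958 stood at 97.5, 117.5, 57.6 and 81.6 in the controls and was at least 32.4-fold lower (adjusted p 6.12e-05). OLFML3 stood at 68.0, 68.6, 63.7 and 126.9 and was at least 30.0-fold lower (adjusted p 6.42e-05). Both were intermediate in the KO guide 2 line, at 14.5 and 24.1 for LINC00958 and at 23.8 and 21.7 for OLFML3.

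LAMA4, the laminin alpha-4 chain of vascular and mesenchymal basement membranes, had 1.57 and 10.4 in the KO guide 1 line. Control 1 had 1185 and 1203 and control 2 only 57.6 and 75.9. It fell by 5.71 (SE 0.50, adjusted p 0.000771), but the control lines themselves differed by -4.15 (control 2 minus control 1, adjusted p 0.0120), so the size of the fall depends on the control.

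WNT5A (chr3:55465715-55505263), a ligand of noncanonical Wnt signalling, stood at 92.4 and 101.7 in the KO guide 1 line. Its control values were 969, 1544, 583 and 588. It fell by 3.11 (SE 0.24, adjusted p 0.000404). The KO guide 2 line lay between, at 186 and 303, and differed from the KO guide 1 line (log2 -1.28, adjusted p 0.0300).

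IL11, a cytokine of the interleukin-6 family that drives fibroblast matrix production, had 5.48 and 11.4 in the KO guide 1 line. The controls had 148.9, 339, 60.2 and 65.7, a log2 difference of -3.74 (SE 0.41, adjusted p 0.00191). LOXL3, a lysyl oxidase that crosslinks collagen, had 31.3 and 34.2 against 218.8, 211.1, 291.7 and 242.5. It fell by 2.83 (SE 0.21, adjusted p 0.000388), and the KO guide 2 line was as low, at 21.7 and 31.4. TM4SF18, a 4-pass membrane protein, had 7.05 and 7.26 against 56.1, 56.2, 233.2 and 273.0. It fell by 3.88 (SE 0.33, adjusted p 0.000685), and the KO guide 2 libraries, at 4.14 and 9.66, stood beside the KO guide 1 libraries. The other members of the group were GTPBP6, a GTP-binding protein, NAP1L5, an imprinted gene of the nucleosome assembly protein family, TLL2, a tolloid metalloprotease that trims matrix proteins, and FNDC10, a fibronectin type III domain protein. Their log2 differences ran from -2.70 to -3.34, and the highest KO guide 1 value among them was 100.6, for TLL2, whose lowest control value was 381.1. LOXL3, KCNIP1 and NAP1L5 overlap other annotated genes, TM4SF18, WNT5A and LAMA4 have annotated antisense partners, and GTPBP6 lies in the pseudoautosomal region with a copy on each sex chromosome, so reads of these loci may be shared.

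Among the 12 largest rises, SORL1, CYP2S1, LINC00707, RASSF6, RDH10 and EML5 were called in each fit that left out 1 library. RDH10 (chr8:73294602-73325281), the retinol dehydrogenase of the first step of retinoic acid synthesis, had 7252 and 8976 in the KO guide 1 line. The controls had 2043, 2479, 1679 and 1740. It rose by 2.04 (SE 0.13, adjusted p 0.000194). The KO guide 2 line, at 3561 and 3486, lay above the controls and below the KO guide 1 line, and the difference between these lines was 1.20 (adjusted p 0.00484).

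RASSF6, a Ras-association domain protein with tumour suppressor activity, had 355.4 and 300.8 against 34.0, 43.7, 89.5 and 80.4. It rose by 2.49 (SE 0.19, adjusted p 0.000388), and at 288.5 and 245.1 the KO guide 2 line was near the KO guide 1 line. The controls differed for RASSF6 (limma adjusted p 0.0398), and its rise was 3.05 against control 1 and 1.93 against control 2. CYP2S1, a cytochrome P450 that can act on retinoids, had 670.9 and 719.9 against 114.0, 144.6, 201.3 and 132.6, a rise of 2.25 (SE 0.20, adjusted p 0.000771). SORL1, a sorting receptor of endosomes, had 522.9 and 401.4 against 62.5, 48.9, 131.6 and 82.7, a rise of 2.58 (SE 0.29, adjusted p 0.00204).

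LINC00707, a long noncoding RNA, had 418.8 and 381.7 against 82.2 to 107.6, and EML5, a microtubule-binding protein, rose by 2.03. STRA6, a membrane receptor that takes up retinol, had 736.7 and 877.6 against 160.0, 239.2, 273.6 and 206.2 and rose by 1.89 (SE 0.23, adjusted p 0.00253). The KO guide 2 line was below the controls for this gene, at 142.7 and 101.4. STRA6 and CREG2, a secreted glycoprotein that rose by 2.49, were no longer called without KO guide 1 replicate 2 (adjusted p 0.0504 and 0.0758), at log2 differences of 1.77 and 2.15.

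ANGPTL4, a secreted inhibitor of lipoprotein lipase, PDGFB, a platelet-derived growth factor, CNTNAP2, a neuronal adhesion protein, and SLC47A2, a renal organic cation exporter, had log2 differences of 1.86 to 2.62, and their calls were lost without either KO guide 1 library, at limma adjusted p-values of 0.0585 to 0.307. The call of SLC47A2 was also lost without any single control library, that of ANGPTL4 without replicate 1 of either control and that of PDGFB without control 1 replicate 2, with log2 differences of 1.71 to 2.35. The KO guide 1 libraries were far apart for SLC47A2, at 375.8 and 144.2, and for ANGPTL4, at 648.2 and 1515.

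In the GENCODE annotation, SORL1, CNTNAP2, RDH10, NQO1 and LOXL2 have antisense partners, and EML5, STRA6, LINC00707 and, among the falls, OLFML3 overlap other genes, so their reads may be shared as well.

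The most abundant called genes changed less. ALDH1A1, an aldehyde dehydrogenase that makes retinoic acid, stood at 56042 and 33003 in the KO guide 1 line. Control 1 had 17130 and 16752, and control 2 had 29217 and 26050. The difference was 0.99 (SE 0.21, adjusted p 0.0280). The KO guide 2 line, at 45499 and 38077, lay in the KO guide 1 range. NQO1, a quinone reductase, and CA12, a carbonic anhydrase of the cell surface, differed by 0.58 and 0.78. SPARC, a collagen-binding matricellular protein, stood at 16884 and 22601 against 43302, 53655, 33329 and 48444, a difference of -1.17 (SE 0.21, adjusted p 0.0156). TGFBI, an adhesion protein induced by TGF-beta, and LOXL2, another lysyl oxidase, differed by -0.75 and -0.93. All 6 lost their call in at least 3 of the 8 fits that left out 1 library. Without KO guide 1 replicate 1 none of them was called, with differences of 0.61 for ALDH1A1 and -0.96 for SPARC, and without replicate 2 only ALDH1A1 was.

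Collagen genes were among the falls. Of 32 fibrillar, basement membrane and other collagen genes in the table, 20 were tested, and 9 fell while none rose, against 3.12% of all genes called lower. The median difference of the 20 was -0.64, where that of all tested genes was -0.00. COL1A1, the main chain of type I collagen, had 176.9 and 195.0 in the KO guide 1 line. Its control values were 1027, 1408, 548 and 851, and it fell by 2.28 (SE 0.22, adjusted p 0.00098). COL5A1, which regulates fibril diameter, had 5836 and 5498 against 18316, 20845, 10092 and 10403 and fell by 1.32 (SE 0.12, adjusted p 0.000771). Its controls differed (limma adjusted p 0.0144), and it fell by 1.79 against control 1 and 0.85 against control 2. COL12A1, a fibril-associated collagen, had 860 and 985 against 2323, 2873, 2210 and 2243 and fell by 1.38 (SE 0.14, adjusted p 0.00161). These 3 kept their call in each fit that left out 1 library. With lines as a random block, 3 of the 20 collagens were called lower.

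The other called collagens were COL13A1, COL8A1, COL6A3, COL6A2, COL7A1 and COL4A1, with differences of -0.63 to -1.96. Basement membrane chains were split, with COL4A2 at -0.27 and COL18A1 at 0.55, neither called. With each chromosome's level set to 0, an alternative described below, 7 collagens were called lower and COL18A1, on chromosome 21, was called higher at 0.97. Between 3 and 9 collagens were called as lower over the 8 fits that left out 1 library, the fewest without KO guide 1 replicate 1. In the KO guide 2 line COL1A1 was higher than in the KO guide 1 line (382.7 and 510.6, log2 -1.25 for guide 1 minus guide 2, adjusted p 0.0254), the only 1 of the 9 for which these lines differed at that threshold. Relative to the controls, the 20 collagens had a median of -0.62 in the KO guide 2 line. The collagen processing and glycoprotein lists described next had medians of -0.50 and -0.40 in that line.

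Some enzymes and chaperones that modify and crosslink collagen were lower as well. Of 21 tested, 7 fell and none rose, against 3.12% of all genes called lower, with a median of -0.58. With lines as a random block 3 were called. LOX, the lysyl oxidase, had 263 and 330 against 1296, 1817, 889 and 1963 and fell by 2.27 (SE 0.39, adjusted p 0.0139). P3H1 and CRTAP, which form a prolyl 3-hydroxylase complex, fell by 0.92 and 0.58, and SERPINH1, the collagen chaperone of the endoplasmic reticulum, by 0.82. Only 1 of the 21 was called without either KO guide 1 library, LOXL3, and 2 were called without control 1 replicate 2. The level of chromosome 3, described below, moved with CRTAP and PCOLCE2, both on it: their calls were lost once each chromosome's level was set to 0, which left 5 calls.

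Among 20 tested matrix glycoproteins and proteoglycans, 5 fell and none rose, against 3.12% of all genes called lower, with a median of -0.64. THBS1, an adhesive glycoprotein that activates latent TGF-beta, had 1709 and 1330 against 4684, 3996, 4191 and 3399 and fell by 1.42 (SE 0.15, adjusted p 0.00148). TNC, which encodes tenascin-C, had 2723 and 3148 against 6733, 7222, 6450 and 6843 and fell by 1.22 (SE 0.12, adjusted p 0.00098). Both were called in each fit that left out 1 library. With the replicate block 9 of this list fell and 1 rose, and with lines as a random block 4 fell. The list had 2 calls without either KO guide 1 library and without control 1 replicate 2, and its median was -0.89 against control 1 and -0.27 against control 2.

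Other matrix lists did not move as one. Of 15 tested laminin and basement membrane genes, LAMA4, LAMB3 and NID1 fell and LAMA3, a chain of the epithelial laminin-332, rose by 1.12 (adjusted p 0.00919), with 3 higher and 3 lower under the block. Of 20 integrins, ITGB6 and ITGB2 fell and ITGAM rose, and of 21 matrix proteases and inhibitors ADAMTS1 and ADAMTS6 fell and PLAT, the tissue plasminogen activator, rose. Under the block 4 integrins rose and 3 fell. Among 14 mesenchymal and EMT genes, 1 fell, SNAI1. The shares called were 26.7% of the laminin list, 15% of the integrins, 14.3% of the proteases and 7.14% of the EMT genes. Over all genes the share was 6.83%. VIM, which encodes vimentin, stood at 37386 and 42862 against 55646 to 83227 without a call (-0.81, adjusted p 0.0880), and CDH2, N-cadherin, was level at 0.08.

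Some genes of epithelial junctions were higher. Of 33 junction and epithelial factor genes in the table, 17 were tested, and 6 rose while none fell, against 3.71% of all genes called higher. The median was 0.85, and with lines as a random block 2 were called. CLDN1, a tight junction claudin, had 5084 and 6641 against 1458, 2278, 2127 and 2247 and rose by 1.54 (SE 0.19, adjusted p 0.00335). ELF3, an epithelial ETS transcription factor, had 1683 and 1287 against 325.5, 262.1, 507.6 and 440.7 and rose by 1.98 (SE 0.24, adjusted p 0.00253). ELF3 was called in each fit that left out 1 library, and its KO guide 2 values were 1816 and 998.

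JUP, plakoglobin of desmosomes, rose by 1.15, and CLDN4 by 1.34, with control 2 between control 1 and the KO guide 1 line for both. CLDN3 and CRB3, a polarity protein, were called at low levels, 26.6 and 29.0 for CLDN3 and 26.6 and 19.7 for CRB3 in the KO guide 1 line. Both passed the minimum of 10 in 2 libraries only through the KO guide 1 libraries, so they could not have been called lower. CDH1, which encodes E-cadherin, was among the 16 members that did not reach the minimum value. Under the block 11 members rose. Without KO guide 1 replicate 2 only ELF3 was called, without replicate 1 it was 2 genes, and no member differed between the KO-labelled lines among the 6 called.

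**Figure D3:**
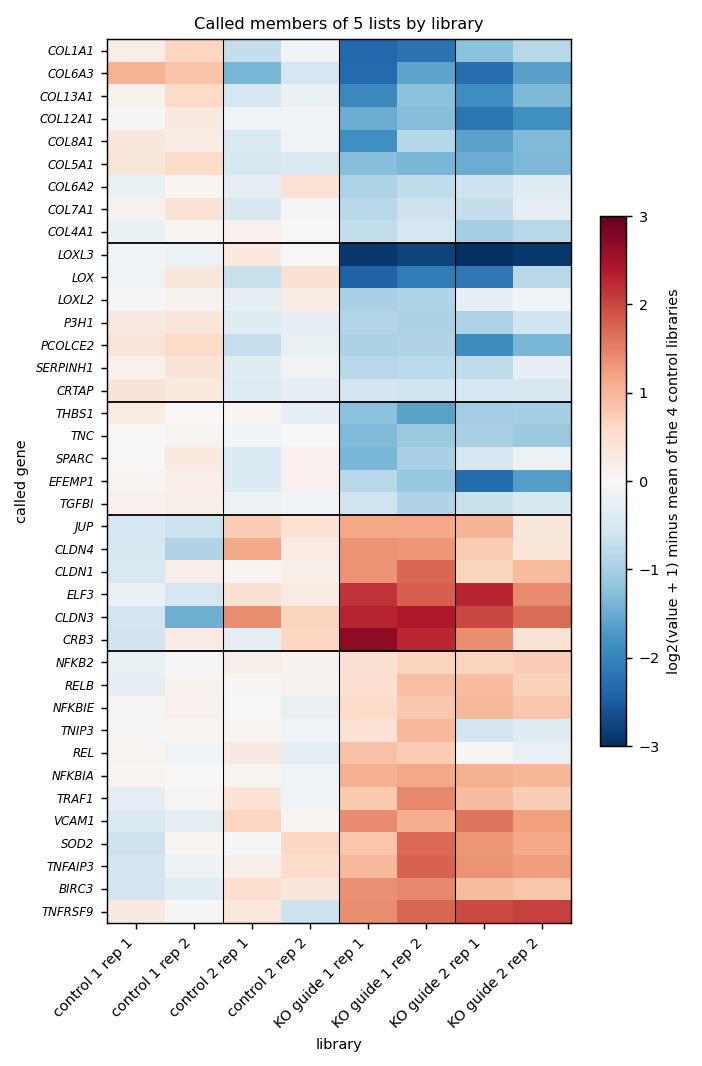
Colour gives log2(value + 1) minus the mean of the 4 control libraries for the called members of 5 lists (from the top: collagens, collagen processing, matrix glycoproteins, epithelial genes, NF-kB genes) in each library; the scale ends at -3 and 3. The genes were chosen by their call, so the contrast of KO guide 1 with control columns is by construction. The KO guide 2 columns entered the choice only through the estimate of spread and are pale for SPARC, LOXL2 and REL. Relative to the control mean, only REL and TNIP3 lie on the side opposite to KO guide 1 in the KO guide 2 line, at -0.08 and -0.47.

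NF-kB is a family of dimeric transcription factors held in the cytoplasm by inhibitors that are themselves among its targets, so that a rise of the inhibitors and of survival genes is a usual readout of the pathway. Its sites have the general form of the motif GGGANNNNCC, which was searched on both strands in the 250 bases before each RefSeq transcription start. The motif was present in 3043 of 10885 tested genes with a promoter in the table (27.96%), in 19 of 28 members of the NF-kB list and in 7 of its 10 called members with a promoter. A match is a description of the letters and not evidence of binding. Stretches around matches are printed 5′ to 3′ on the strand of the gene (RefSeq, GRCh38.p14), with the motif in capitals, for 4 called genes whose values follow.
NFKBIA, chr14:35404806-35404845, minus strand: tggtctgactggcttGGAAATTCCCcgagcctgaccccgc
TNFAIP3, chr6:137867177-137867216, plus strand: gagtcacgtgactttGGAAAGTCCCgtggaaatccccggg
VCAM1, chr1:100719665-100719704, plus strand: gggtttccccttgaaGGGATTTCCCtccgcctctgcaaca
TNFRSF9, chr1:7940888-7940928, minus strand: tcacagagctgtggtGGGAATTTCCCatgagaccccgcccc

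Of 34 NF-kB subunits and targets in the table, 33 were tested, and 12 rose while none fell, against 3.71% of all genes called higher. The median was 0.69, and with lines as a random block 2 were called. Among the inhibitors, NFKBIA, which encodes I-kappa-B-alpha, had 1048 and 1119 in the KO guide 1 line. Its controls were tightly grouped at 521, 494, 534 and 458, and it rose by 1.11 (SE 0.12, adjusted p 0.0018). TNFAIP3, the ubiquitin-editing enzyme A20, had 914 and 1604 against 312.6, 423.3, 524.8 and 686.6 and rose by 1.37 (SE 0.23, adjusted p 0.0126). NFKBIE and TNIP3 rose by 0.70 and 0.71.

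Among the survival and signalling genes, BIRC3, the apoptosis inhibitor cIAP2, had 2205 and 2324 against 581, 685, 1216 and 1090. It rose by 1.41 (SE 0.12, adjusted p 0.000725). The controls differed for BIRC3 (limma adjusted p 0.0231), and its rise was 1.84 against control 1 and 0.97 against control 2. VCAM1, a leukocyte adhesion molecule of kidney tubules and kidney tumours, had 2508 and 2014 against 696, 769, 1482 and 1008 and rose by 1.25 (SE 0.19, adjusted p 0.00696). TNFRSF9, the costimulatory receptor 4-1BB, had 319.4 and 399.4 against 147.1, 123.8, 151.4 and 78.2 and rose by 1.55 (SE 0.25, adjusted p 0.0102). BIRC3 and NFKBIA were called in each fit that left out 1 library. SOD2, the mitochondrial superoxide dismutase, and TRAF1 rose by 1.26 and 1.12.

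Of the subunits, RELB, NFKB2 and REL rose by 0.69, 0.56 and 0.82, while RELA and NFKB1 had differences of 0.11 and 0.55 without a call. The cytokines CXCL8 and IL6 and the receptor CD40 were not among the calls: CXCL8 stood at 1269 and 3736 against 1483 to 3540, IL6 differed by -0.79 and CD40 by -1.39. Without KO guide 1 replicate 1 or replicate 2 the list had 3 calls each, and with each chromosome's level set to 0 it had 9. In the KO guide 2 line NFKBIA stood at 1054 and 998, BIRC3 at 1636 and 1508, and VCAM1 at 2884 and 2221, all above the control libraries. TNIP3 was the only called member for which the KO-labelled lines differed (log2 1.18, adjusted p 0.0151), where 6.99% of all tested genes did.

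CCN1 and CCN2, secreted matricellular proteins that are used as readouts of the mechanosensitive factors YAP and TEAD, fell. CCN2 had 473.6 and 366.2 against 922, 992, 943 and 920 and fell by 1.18 (SE 0.16, adjusted p 0.0044). CCN1 had 3124 and 1607 against 6298, 5868, 5042 and 4451 and fell by 1.26 (SE 0.23, adjusted p 0.0157). CRIM1 fell and PTPN14 rose, so that 3 of 25 tested members of the YAP list were lower and 1 higher, against 3.12% and 3.71% of all genes. The list as a whole had a median of -0.18, and no member was called without KO guide 1 replicate 2. The TEAD motif GGAATG, on either strand, was in the same window for 1018 of 10885 genes (9.352%) and for 6 of 18 list members. Both of the 2 called members with a promoter held it: CCN2, which fell, and PTPN14, which rose. The CCN2 promoter held it 3 times, of which the adjacent pair is printed.
CCN2, chr6:131951447-131951491, minus strand: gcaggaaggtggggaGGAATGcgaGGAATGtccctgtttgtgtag

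In the Wnt list, 6 of 30 tested genes fell and 3 rose, against 3.12% and 3.71% of all genes called lower and higher, with a median of -0.11. With lines as a random block 1 was called. Besides WNT5A, AXIN2, SP5 and LEF1, which are induced by canonical Wnt signalling, fell, as did the receptor FZD2 and the secreted protein DKK3. Against control 2 alone, the differences were -1.21 for AXIN2, -0.87 for SP5, -1.04 for FZD2 and -0.29 for both LEF1 and DKK3. Of these falls only that of WNT5A had a limma adjusted p under 0.05 against control 2. AXIN2 had 12.5 and 12.4 against 73.6, 62.4, 42.2 and 21.5 and fell by 1.78 (SE 0.31, adjusted p 0.0139). TCF7L2, FZD5 and WNT9A rose, by 0.62 to 1.70. Without 1 library between 1 and 9 members were called, and WNT5A was called each time.

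Of 19 tested contractile genes 4 fell and none rose, against 3.12% of all genes called lower. The median was -0.10, 9 of the 19 lay above 0, and without either KO guide 1 library 1 gene was called. Some of the 4 stood above the controls in the KO guide 2 line. CNN1, smooth muscle calponin, had 2.35 and 1.04 in the KO guide 1 line. The controls had 23.0, 20.8, 28.4 and 27.2, and the KO guide 2 line 87.9 and 71.2. From the controls it fell by 3.30 (SE 0.32, adjusted p 0.00114), and the KO-labelled lines differed by -4.94 (adjusted p 0.000433). TGFB1I1, a focal adhesion adaptor, fell by 0.92 and also differed between the KO-labelled lines (-1.26, adjusted p 0.00305), as did TPM1.

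Of 28 tested NRF2 targets, which encode antioxidant and export proteins, 6 rose and none fell, against 3.71% of all genes called higher, with a median of 0.47. Under the replicate block 13 rose, and with lines as a random block 2 did. ABCC3, an exporter of conjugated compounds, had 8337 and 7674 against 3904, 3784, 4337 and 4342, with both controls close together. It rose by 0.97 (SE 0.10, adjusted p 0.00174). ABCC2, a related exporter, had 3470 and 2470 against 2092 and 1477 in control 1 and 103.2 and 112.2 in control 2, so its difference was 0.74 against control 1 and 4.75 against control 2. HMOX1, heme oxygenase, rose by 1.28, while GSR, ME1 and NQO1 rose by 0.85, 0.45 and 0.58. With each chromosome's level set to 0 only ABCC2 and ABCC3 were called.

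A few other annexins and membrane repair genes were called. For the annexins the share was 20%, against 6.83% of all genes. Of 10 tested annexins other than ANXA4, ANXA3 rose by 0.51 and ANXA10 fell, with 61.9 and 91.3 against 171.0, 190.3, 472.3 and 913.2 (log2 -2.18, SE 0.27, adjusted p 0.003). ANXA10 was also low in the KO guide 2 line, at 100.3 and 107.4. Its controls differed (limma adjusted p 0.0282), and its fall was 1.25 against control 1 and 3.11 against control 2. The abundant members ANXA2, ANXA5 and ANXA1 had differences of 0.05, -0.05 and 0.40, none called. Of 26 membrane repair genes 4 rose and 1 fell (19.2% called, against 6.83% of all genes), and 8 rose under the block and 2 with lines as a random block. DYSF, the repair protein dysferlin, had 0.78 and 1.04 against 53.3 and 66.6 in control 1 and 9.46 and 10.2 in control 2. Control 2 was already well below control 1 for this gene, and the KO guide 2 line was at 1.03 and 3.62.

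**Figure D4:**
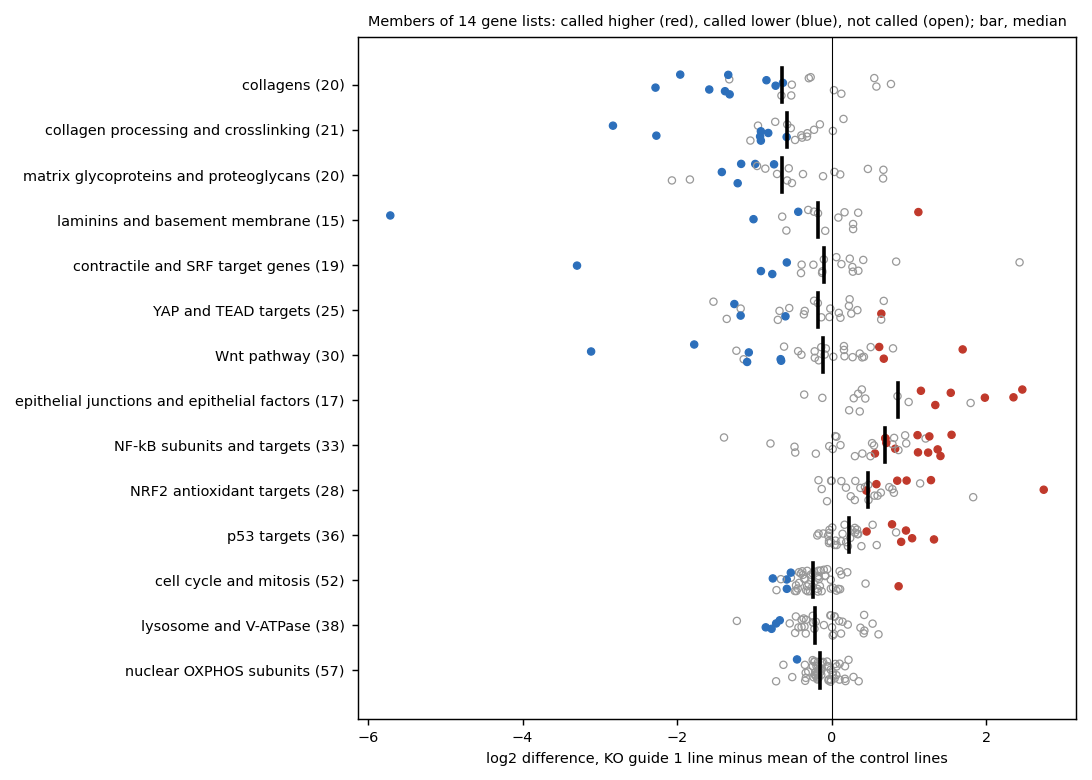
Log2 difference of the KO guide 1 line from the mean of the control lines for each tested member of 14 gene lists (number tested in brackets); red and blue points are called genes and the bar is the median. The collagen, collagen processing and glycoprotein lists have medians of -0.64, -0.58 and -0.64, and the epithelial and NF-kB lists of 0.85 and 0.69.

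Position in the genome moved with the calls. Over the 385 tested genes of chromosome 20 the median difference was -0.39, and 84.9% of them were below 0. On chromosome 21 the median over 137 genes was -0.41. Against the separate controls the medians were -0.35 and -0.41 for chromosome 20 and -0.40 and -0.41 for chromosome 21, and both KO guide 1 libraries showed them, at -0.41 and -0.39 and at -0.43 and -0.41. The control and KO guide 2 libraries lay between -0.04 and 0.06 for these chromosomes.

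Chromosome 8 had a median of 0.29 over 497 genes, and 82.5% were above 0. Its KO guide 1 libraries stood at 0.29 and 0.30, its controls between -0.11 and 0.10 and its KO guide 2 libraries at 0.14 and 0.16. Of the called genes 85 on chromosome 20 were lower and 3 higher, 31 on chromosome 21 were lower and 1 higher, and 68 on chromosome 8 were higher and 6 lower. The 3 chromosomes, picked out after the values were seen, held 7.37% of the tested genes and 20.6% of the called ones. The medians of the 20 other chromosomes with at least 100 tested genes ran from -0.22 to 0.15. The outermost were chromosome 3, at -0.44 against control 1 but 0.01 against control 2, and chromosome 16, at -0.02 and 0.34, where the controls themselves differed.

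**Figure D5:**
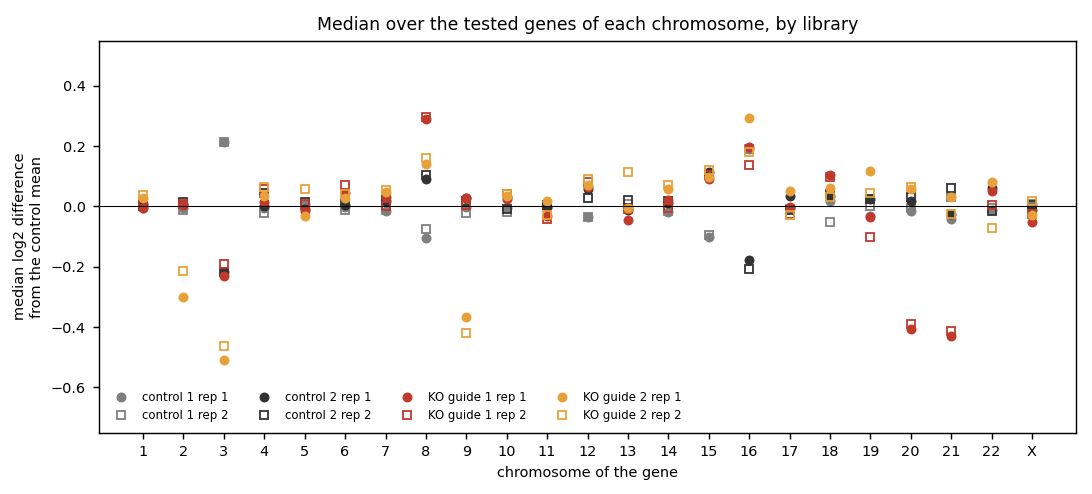
Median over the tested genes of each chromosome of the log2 difference from the control mean, by library (filled circles replicate 1, open squares replicate 2). The KO guide 1 libraries stand apart on chromosomes 20 and 21, near -0.4, and the 2 control lines lie on opposite sides of 0 on chromosomes 3 and 16.

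In an alternative added after these values were seen, the median of each chromosome was set to 0 in every library. Then 643 genes were called, 363 higher and 280 lower, and 600 of them were among the original 944. Of 52 tested cell cycle genes, 43 were below 0, with a median of -0.25 that became -0.22 with the chromosome levels set to 0. In the main fit 9.62% of them were called, against 6.83% of all genes. The 4 called lower, E2F1, AURKA, TPX2 and CDC25B, with log2 differences of -0.53 to -0.76, all lie on chromosome 20, and 1 member, E2F2, rose. None of the 5 was called with the chromosome levels set to 0, where the 4 stood at -0.13 to -0.36 and E2F2 at 0.86. Under the block 14 cell cycle genes were lower and 1 higher, and none was called when either KO guide 1 library was left out. Of 36 tested p53 targets 6 rose, against 3.71% of all genes called higher. Of the 6, TNFRSF10A and RRM2B lie on chromosome 8. With the chromosome levels set to 0, the p53 targets kept 3 calls. CDKN1A, the main cell cycle inhibitor among them, had a difference of 0.34 without a call. COL6A2, CTSZ of the lysosomal list, SNAI1 and ITGB2 lay on chromosome 20 or 21 and lost their calls too, while LOXL2 on chromosome 8 fell against the direction of its chromosome. Of the 12 largest falls none lies on chromosome 8, 20 or 21, and of the 12 largest rises only RDH10 does.

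Of 27 tested targets of the hypoxia-inducible factors (HIF) 4 rose and 1 fell (18.5% called, against 6.83% of all genes). ANGPTL4, CA12, NDRG1 and EGLN1 rose and LOX fell, and without KO guide 1 replicate 1 or 2 the list had 1 call or 0. Of 27 ABC transporters 4 rose (ABCA3, ABCA12, ABCC2 and ABCC3) and ABCB6 fell (18.5%), and 2 were called without either KO guide 1 library. Of 57 nuclear genes of oxidative phosphorylation 1 fell (1.75%). Of 38 lysosomal genes 4 fell and none rose (10.5%), with 8 lower and 2 higher under the block. The semaphorins SEMA5A and SEMA7A, guidance cues, fell by 1.84 and 2.07 and were called in each fit that left out 1 library. For SEMA7A the controls themselves differed (control 2 minus control 1, -1.24, limma adjusted p 0.0483). DDIT4, a stress-induced inhibitor of mTORC1, rose by 1.36 (SE 0.10, adjusted p 0.000388) and was called in each fit that left out 1 library. Its controls differed as well (-0.95, limma adjusted p 0.00832), and its rise was 0.89 against control 1 and 1.83 against control 2. No member of the lists of glycolysis (22 tested), cholesterol synthesis (30), HLA class I presentation (12), S100 proteins (9) or mitochondrially encoded genes (13) was called by limma; at an unadjusted p under 0.05 there were 5, 4, 1, 0 and 0 of them. edgeR and DESeq2 each called 1 glycolysis gene and none of the others. Under the block 1 glycolysis gene rose and 2 fell, 3 cholesterol genes fell and 1 S100 gene fell.

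Depth of the 6 libraries ran from 16504991 to 22631588 reads, and mitochondrial genes took 6.43% and 6.23% of reads in the KO guide 1 line and 4.67% to 9.05% in the controls. Markers of A-498 cells summed to 120325 and 125091 normalized counts in the KO guide 1 libraries, within the control range of 115202 to 147078. Of the leukocyte markers 6 of 12 had at most 3 reads in every one of the 6 libraries, PTPRC among them, as had 5 of 10 endothelial markers, CDH5 among them, and 4 of 10 fibroblast markers. These lists were not silent as a whole. The leukocyte list summed to 3191 and 3807 in the KO guide 1 line against 1932 to 4415 in the controls, and 1 of its 2 tested members was called lower. The endothelial list summed to 894 and 969 against 978 to 1343. LUM and DCN of the fibroblast list were at 0, and its sum was 509 and 529 in the KO guide 1 line against 838 to 1744; COL1A1 was its only called member. In bulk RNA, fewer cells of a kind and less RNA per cell cannot be told apart.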

How the data were processed

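Poly(A) RNA of A-498 lines was sequenced and counted per gene by the authors with fastp 0.23.2, HISAT2 2.2.1, featureCounts 2.0.1 and DESeq2 2.11.40.8 on hg38/GRCh38, per the submitters' processing notes; annotation and use of strand are not given in the sources used here. The deposited values are a normalized signal, read counts divided by 1 size factor per library. All values above 0 were whole multiples of 1 read within 0.0001, which recovered the reads. Reads carried no molecular identifiers, so floors (3 reads per library) cover counting error only. Symbols, positions and promoters came from RefSeq (GRCh38.p14) and matched 27745 of 28395 identifiers; the 650 others held 0.0332% of reads.

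Genes with a value of 10 or more in 2 of the 6 libraries were tested with limma 3.58.1 (R 4.3.3) on log2(value + 1), with 1 mean per line over all 8 libraries, a trended variance and Benjamini-Hochberg adjustment; the contrast was the KO guide 1 line minus the mean of the control lines. The test was also run on simulated counts. These held no differences between lines besides the set KO guide 1 changes, no replicate pairing and no chromosome shifts. That run therefore does not show how the calls behave where such differences exist. Replicate numbers in the labels pair the libraries: deviations of same-numbered libraries correlated at 0.29 to 0.51 across genes for all 6 pairs of lines, so fits with the number as a block are quoted. Replicates of a line differed by more than sampling noise. The text names ANXA4, the 12 largest rises and falls with a mean of at least 50, the 3 most abundant genes called in each direction, and called or defining members of 44 lists. The comparison, members and lists were chosen with earlier results of these data known. Alternatives were other pseudocounts, minima, scalings and samples, edgeR 4.0.16 and DESeq2 1.42.0 on recovered reads, and leaving out each library. Levels of chromosomes were examined after seeing the data. Guide and protein sequences were not used here.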

Additional observations from a re-analysis of the deposited data

Results flagged for a closer look

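Of the 24 genes with the largest rises and falls, 17 differed between the KO guide 1 and KO guide 2 lines. The test was limma on the difference itself, at a Benjamini-Hochberg adjusted p under 0.05, and 6.99% of all tested genes passed it. Both lines carry an ANXA4 knockout label. The 24 were chosen by their KO guide 1 values, which also enter this difference, so part of the excess is built in. Relative to the controls, the KO guide 2 line stood on the same side for some of the 17 (LAMA4 -3.27, WNT5A -1.83). It stood on the other side for others (STRA6 -0.84, KCNIP1 0.51). Among rises, the KO guide 1 minus KO guide 2 difference (log2) was 2.73 for STRA6, 2.55 for CREG2, 2.29 for CNTNAP2, 1.52 for CYP2S1, 1.33 for SORL1, 1.2 for RDH10, 1.18 for LINC00707 and 1.10 for EML5. Among falls it was -5.75 for KCNIP1, -4.57 for OLFML3, -4.30 for LINC00958, -3.60 for IL11, -2.70 for NAP1L5, -2.54 for FNDC10, -2.44 for LAMA4, -1.94 for TLL2 and -1.28 for WNT5A. ANXA4 itself was low in the KO guide 1 line only.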

How the results depend on the processing

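The number of genes called against both controls, 944, became 2694 with the replicate block (1430 higher, 1264 lower), 304 with lines as a random block (142 and 162), 0 with 1 value per line (1477 at an unadjusted p under 0.05, limma) and 229 with an adjusted p required against each control (105 and 124). edgeR called 1011 and DESeq2 1327. Alternatives chosen after seeing the data left 280 lower calls with chromosome levels set to 0, 274 with levels of windows of 50 genes set to 0 and 280 without chromosomes 8, 20 and 21. Leaving out 1 library gave 138 to 1250 calls (60 to 688 higher, 68 to 562 lower); the fewest calls in all were without KO guide 1 replicate 2 and the fewest lower calls without replicate 1.

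The 229 calls against each control became 1392 with the block, 445 with DESeq2, 144 with window levels at 0, 152 without the 3 chromosomes and 26 to 303 without 1 library. The 304 differences between controls became 192 with every gene above 0, 1758 with the block, 168 and 147 with chromosome and window levels at 0, and 43 to 411 without 1 library. The 966 between the KO-labelled lines became 3426 with the block, 542 and 394 with chromosome and window levels at 0, and 87 to 992 without 1 library. The cause of these shifts was not tested.

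Every one of the 944 calls held under the block. A call requires both KO guide 1 libraries to lie beyond every control library. Leaving out a library, another pseudocount, line means or the block therefore could not turn the sign of a called gene. Those settings do not test the direction. Setting the levels of chromosomes or windows to 0 could turn it. No called gene changed sign with chromosome levels at 0, and 2 did with window levels at 0.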

Other observations

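Genes of retinoid handling were listed after values had been seen, those of STRA6, RDH10, ALDH1A1 and CYP2S1 among them, and are given without a test. Of 16 tested genes 5 were called higher and none lower, where 3.71% of all genes were called higher. The choice of the list raised this share, so it does not show an enrichment. Besides the genes just named, DHRS3, a retinaldehyde reductase induced by retinoic acid, rose. It had 2759 and 2768 in the KO guide 1 line against 691, 935, 710 and 1340 in the controls (log2 1.64, SE 0.25, limma adjusted p 0.00736). The receptors RARA, RARB, RARG and RXRA had differences of -0.28 to 0.42, none called. CYP26A1, the inducible enzyme that degrades retinoic acid, was at 0 in both KO guide 1 libraries and at 16.6, 19.8, 0 and 3.40 in the controls.

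By gene class, 7.22% of the 12509 tested protein-coding genes were called and 3.22% of the 777 long noncoding RNAs.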
